A study of Mus musculus with 6 samples.

Results

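The mRNA levels of 10 genes of the CC chemokine family were set against each other in LPS-treated control and PGAM5 KD iBMDMs. The members were taken by gene symbol from the 54532 genes in the files, and they are the ligand genes Ccl2, Ccl3, Ccl4, Ccl5, Ccl6, Ccl7, Ccl9, Ccl12 and Ccl22 and the receptor-like gene Ccrl2. iBMDMs are macrophages grown from the bone marrow of wild-type mice and immortalized with retroviruses that carry v-raf and v-myc, so all 6 libraries come from a transformed cell line. The 3 control libraries come from iBMDMs with a control shRNA (shControl) and the 3 PGAM5 KD libraries from iBMDMs with an shRNA against Pgam5 (shPGAM5), both delivered by lentivirus, and each library was made from cells treated with LPS at 100 ng/ml for 4 hours. LPS is a bacterial membrane component that activates macrophages through TLR4. No untreated cells are among these libraries, so the values are levels after LPS and not inductions. Each group has its own shRNA and its own transduced line, so an effect of Pgam5 loss and a difference between the lines cannot be told apart.

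CC chemokines are small secreted proteins with a pair of adjacent cysteines near the start of the mature chain. They bind G protein-coupled receptors on leukocytes and guide their migration into inflamed tissue. Macrophages that sense LPS are a known source of them, and factors of the C/EBP, CREB, NF-κB and AP-1 families are known to act at many of their promoters. Ccl3, Ccl4 and Ccl5 attract monocytes and T cells, and Ccr1 is a receptor of Ccl3 and Ccl5. Ccl2, Ccl7 and Ccl12 are ligands of Ccr2 and recruit monocytes, Ccl6 and Ccl9 are mouse ligands of Ccr1, and Ccl22 binds Ccr4 on T cells. Ccrl2 is not a ligand but an atypical receptor that binds chemerin and does not signal to cell migration by itself.

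Of the 10 genes, 8 lie on chromosome 11 of GRCm38 in 2 groups, the first with Ccl2, Ccl7 and Ccl12 and the second with Ccl5, Ccl9, Ccl6, Ccl3 and Ccl4. Ccl22 lies on chromosome 8 and Ccrl2 on chromosome 9. RefSeq promoter windows of GRCm38.p6, from 250 bases before to 50 bases after a start site, were found for 6 of the 10 genes, with no entry for Ccl2, Ccl4, Ccl5 and Ccl7. Those of Ccl3 and Ccl9 are shown because these genes of the second group, 69207 bases apart with Ccl6 between them, fell on opposite sides of the test's threshold, Ccl3 past it and Ccl9 not, and that of Ccrl2 because it holds an NF-κB consensus as Ccl9 does. Capitals mark matches, on either strand, to the NF-κB consensus, to AP-1 (TGANTCA), to C/EBP (TTNNGNAA) and to a CRE half-site (TGACG).
Ccl3, chr11:83649329-83649628, minus strand: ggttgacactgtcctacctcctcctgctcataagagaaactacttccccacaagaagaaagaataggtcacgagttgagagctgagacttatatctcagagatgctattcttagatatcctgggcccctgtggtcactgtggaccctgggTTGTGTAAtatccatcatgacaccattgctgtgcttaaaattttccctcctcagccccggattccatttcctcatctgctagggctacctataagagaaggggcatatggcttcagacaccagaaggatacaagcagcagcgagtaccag
Ccl9, chr11:83578587-83578886, minus strand: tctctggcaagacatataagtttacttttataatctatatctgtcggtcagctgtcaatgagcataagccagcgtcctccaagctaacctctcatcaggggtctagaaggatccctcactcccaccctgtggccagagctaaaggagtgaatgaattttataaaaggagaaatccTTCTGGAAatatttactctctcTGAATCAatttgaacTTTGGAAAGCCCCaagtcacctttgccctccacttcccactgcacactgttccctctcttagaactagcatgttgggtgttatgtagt
Ccrl2, chr9:111057469-111057768, minus strand, the first of 3 start sites: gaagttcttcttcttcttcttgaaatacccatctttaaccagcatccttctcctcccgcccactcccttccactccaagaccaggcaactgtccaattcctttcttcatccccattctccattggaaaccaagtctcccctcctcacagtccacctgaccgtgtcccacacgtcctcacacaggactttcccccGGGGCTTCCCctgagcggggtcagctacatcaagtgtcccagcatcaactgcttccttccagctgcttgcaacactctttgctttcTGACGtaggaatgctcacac
The window of Ccl3 held 1 C/EBP match, TTGTGTAA, at position -100 from the start site, and no match to the other motifs. The window of Ccl9 held an NF-κB consensus at position -35, where the strand opposite to the printed letters GGAAAGCCCC matches. It also held an AP-1 match at -53 and C/EBP matches at -75 and -38, of which the last overlaps the NF-κB consensus. The window of Ccrl2 held the NF-κB consensus GGGGCTTCCC, which reads as a match on both strands, at position -56 and a CRE half-site at 30, and the windows of its other start sites held that half-site alone. Among the windows not shown, that of Ccl22 held a CRE half-site at position 10, and those of Ccl6 and Ccl12 held no match. Of all 32851 promoter windows, 8.46% held the NF-κB consensus, 7.81% AP-1, 40.7% C/EBP and 20.8% the CRE half-site. These matches describe the letters in the windows and are not measured binding sites.

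The values are FPKM, the fragments of a gene scaled by its exon length and by the depth of the library, so levels of different genes may be set side by side. Between 18163463 and 24388915 fragments per library were recovered from the steps of the FPKM values. The 10540 genes that averaged at least 1 FPKM were tested with limma as log2(FPKM + 1), with Benjamini-Hochberg adjustment over all of them, and 8 of the 10 genes passed this filter. An adjusted p under 0.05 is the threshold used below, and differentially expressed is said of a gene that also has an absolute log2 fold change above 1. The labels do not say whether replicates were separate cultures, so p-values measure the spread between these libraries, which may be technical. For Pgam5 itself the mean was 14.5 ± 2.27 FPKM in control and 4.87 ± 0.77 FPKM in PGAM5 KD libraries (SD, n = 3), without overlap, which is -1.40 on the log2 scale (limma adjusted p = 0.000358). Of 10 macrophage markers, 7 had a mean of at least 1 FPKM, with Mertk at 0 and Mrc1 and C1qa below 1. Markers of neutrophils, dendritic cells, fibroblasts and lymphocytes were each below a mean of 1 FPKM, and their summed level was at most 0.681 FPKM per list in any library.

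The most abundant of these mRNAs, Ccl3 and Ccl4, rose in PGAM5 KD cells, and so did Ccl5 and Ccl2. These genes, which encode attractants of monocytes and T cells, were higher by between 1.26-fold and 1.67-fold on the scale of FPKM + 1. Ccl9, Ccl7, Ccl22 and Ccrl2 were not past the threshold, and Ccl6 and Ccl12 were too low to be tested. Of the 8 genes tested, 4 were higher and 0 were lower at an adjusted p under 0.05 (limma), against 16.8% higher (1771) and 14.9% lower (1575) of all genes tested. Scaled to TPM, 1088 of all genes were higher and 2282 lower, and the counts for the 8 genes were again 4 and 0. They were also 4 and 0 at an unadjusted p under 0.05, against 22.7% and 20.1% of all genes, and at an adjusted p under 0.05 with voom on recovered fragments, against 18.8% and 18%. The median log2 fold change was 0.26 over the 8 genes and 0.013 over all genes tested. With the fold change threshold added, 0 of the 8 genes were differentially expressed in either direction, against 0.787% higher and 0.531% lower of all genes. The libraries of the groups did not overlap for 4 of the 8 genes, all of them higher in PGAM5 KD cells, against 24.2% of all genes tested that were higher and 22.9% that were lower without overlap.

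**Figure D1:**
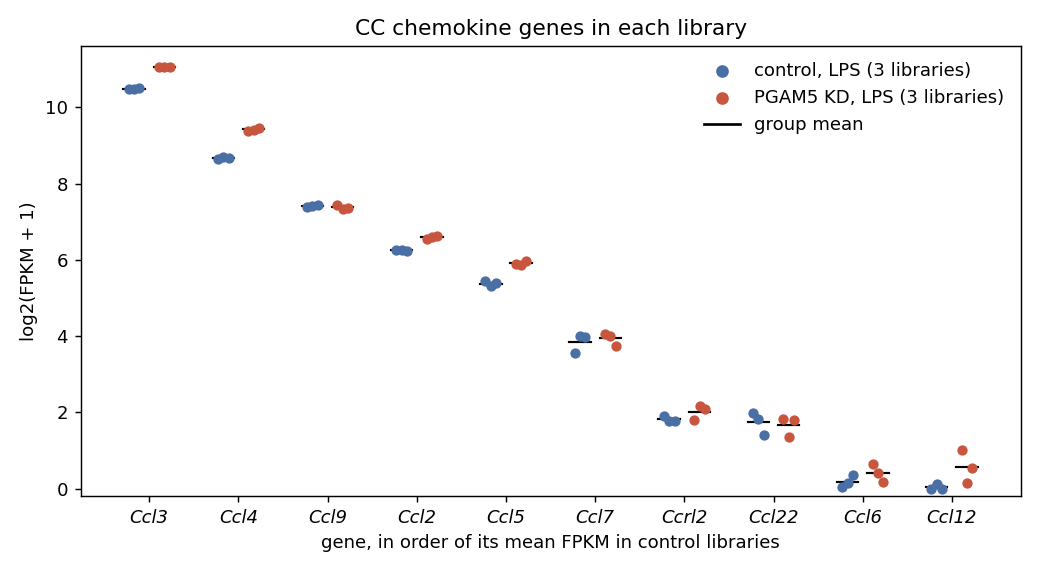
Levels of the 10 genes as log2(FPKM + 1) (y axis), in order of their mean in control libraries (x axis). Each point is a library, 3 per group, and the line is the group mean. The points of Ccl3, Ccl4, Ccl2 and Ccl5 are higher in PGAM5 KD without overlap, while those of Ccl9, Ccl7, Ccrl2, Ccl22 and Ccl6 overlap. Ccl12 lies at or near 0 in control and reaches 1.02 FPKM in PGAM5 KD replicate 1, without overlap between the groups.

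Ccl3 (ENSMUSG00000000982), from 83647844 to 83649355 of chromosome 11 (minus strand), has 3 exons with 766 bases. Control libraries had 1422, 1428 and 1450 FPKM, and 2125, 2133 and 2130 FPKM were found with the knockdown. The groups were far apart and the replicates of a group lay close together. On the log2 scale Ccl3 rose by 0.57 (standard error 0.02, 95% confidence interval 0.52 to 0.62, limma adjusted p = 1.82e-05). Ccl3 had the 10th highest mean FPKM of the genes tested in control and the 5th highest in PGAM5 KD cells. Between 19790 and 39784 fragments per library were on this gene.

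Ccl4 (ENSMUSG00000018930) is the neighbour of Ccl3, 13228 bases away on the plus strand from 83662584 to 83664683, with 3 exons and 660 bases. Its levels were 402, 417 and 410 FPKM in control and 667, 683 and 707 FPKM in PGAM5 KD libraries. The PGAM5 KD libraries stood at 163%, 167% and 173% of the control mean, the largest fold change among the 8 genes. This was a rise of 0.74 in log2 (standard error 0.03, 95% confidence interval 0.67 to 0.81, limma adjusted p = 2.05e-05), at the 97.9th percentile of all genes tested. The levels of these neighbours were compared directly. Within a library, the level of Ccl4 was 0.283, 0.292 and 0.283 of that of Ccl3 in control and 0.314, 0.320 and 0.332 in PGAM5 KD cells. These ratios did not overlap, but the exact two-sided permutation test gave p = 0.1, the smallest that 3 libraries against 3 allow, and an adjusted p of 0.15 over the 6 pairs of genes compared.

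Ccl5 (ENSMUSG00000035042) lies at the other end of the second group, on the minus strand from 83525778 to 83530518, with 3 exons and 960 bases. It is known as a target of both NF-κB and interferon signaling. Its level was 42.3, 38.8 and 40.7 FPKM in control, against 58.5, 57.2 and 61.3 FPKM after knockdown. The highest control library was well below the lowest PGAM5 KD library. Ccl5 rose by 0.53 on the log2 scale (standard error 0.04, 95% confidence interval 0.42 to 0.64, limma adjusted p = 0.000259). The level of Ccl5 relative to Ccl3 overlapped between the groups, with means of 0.0283 and 0.0277 (exact permutation p = 0.5, adjusted p = 0.5 over the 6 pairs), and the log2 ratio differed by -0.040.

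Ccl9 (ENSMUSG00000019122), on the minus strand from 83572919 to 83578636 between Ccl5 and Ccl3, has 5 exons and 3045 bases. Levels of 167, 169 and 172 FPKM in control stood against 174, 162 and 163 FPKM with PGAM5 KD. The highest and the lowest of the 6 libraries were both PGAM5 KD, and the groups overlapped. Its difference of -0.028 in log2 did not pass (standard error 0.04, limma adjusted p = 0.593), and the 95% confidence interval ran from -0.115 to 0.058, below those of Ccl3, Ccl4 and Ccl5. Relative to Ccl3, Ccl9 stood at 0.118 ± 0.000609 in control and 0.0781 ± 0.00339 with PGAM5 KD (SD, n = 3). Relative to Ccl5 the values were 4.18 ± 0.206 and 2.82 ± 0.159, and neither ratio overlapped between the groups (exact permutation p = 0.1 and adjusted p = 0.15 over the 6 pairs for each). A stretch of between 200 and 247 bases of Ccl9 resembled 8 other genes at 85.02% to 88.5% identity. Summed with these genes, of which Ccl9 made up at least 82.2% of the FPKM, the log2 fold change was 0.0061 (exact permutation p = 0.9).

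Ccl6 (ENSMUSG00000018927), 9245 bases from Ccl9 on the minus strand from 83587882 to 83593087, was near the limit of detection. It had 1, 4 and 10 fragments in control and 22, 11 and 6 fragments in PGAM5 KD libraries, or between 0.0307 and 0.558 FPKM. The groups overlapped (exact two-sided permutation p = 0.2). Summed over a group and divided by depth, the level in PGAM5 KD cells was 2.33 times that in control, with a 95% interval from 1.26 to 4.55 that covers counting error only. One library held most fragments of each group, and the ratio was 1.54 without PGAM5 KD replicate 1 and 4.63 without control replicate 3. The antisense transcript E230016K23Rik overlaps Ccl6, and whether the counting used strand is not given in the sources used here.

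Ccl2 (ENSMUSG00000035385), on the plus strand of chromosome 11 from 82035571 to 82037453, has 2 exons with 1138 bases. At 75.4, 76.2 and 73.95 FPKM the control libraries were nearly alike, and PGAM5 KD gave 92.5, 95.8 and 97.4 FPKM. The groups were separated by more than their spread. The rise of 0.34 in log2 (standard error 0.03, 95% confidence interval 0.26 to 0.41, limma adjusted p = 0.000467) was at the 90.2th percentile of all genes tested. Its level relative to Ccl3 was 0.0525 ± 0.00126 in control and 0.0447 ± 0.00112 with PGAM5 KD (SD, n = 3), without overlap (exact permutation p = 0.1, adjusted p = 0.15 over the 6 pairs).

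Ccl7 (ENSMUSG00000035373), 8258 bases from Ccl2 on the same strand from 82045712 to 82047525, was lower and more variable. Its levels were 10.7, 15.0 and 14.8 FPKM in control and 15.7, 15.1 and 12.4 FPKM in PGAM5 KD libraries. Control replicate 1 was the lowest of the 6, and the groups overlapped. The difference was 0.097 in log2 and did not pass (standard error 0.14, 95% confidence interval -0.230 to 0.42, limma adjusted p = 0.629), and without control replicate 1 it was -0.050. The interval includes the rise of Ccl2, and the level of Ccl7 relative to Ccl2 overlapped between the groups (exact permutation p = 0.3, adjusted p = 0.36 over the 6 pairs), so these libraries do not tell the changes of both genes apart.

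Ccl12 (ENSMUSG00000035352), the last member of the first group, on the plus strand from 82101845 to 82103400, had 0, 1 and 0 fragments in control and 12, 1 and 6 fragments in PGAM5 KD libraries. In FPKM the control libraries had 0, 0.0923 and 0 and the PGAM5 KD libraries 1.02, 0.103 and 0.458, so the groups did not overlap, but PGAM5 KD replicate 2 held as many fragments as control replicate 2. The exact two-sided permutation test of log2(FPKM + 1) gave p = 0.1. Summed over a group and divided by depth, PGAM5 KD cells had 17 times the level of control cells, with a 95% counting interval from 2.71 to 708. The ratio rests on a single fragment, in control replicate 2, without which it has no value. It was 9.52 without PGAM5 KD replicate 1 and 11.3 without control replicate 3, and the mean of Ccl12 was below the filter. Between Ccl7 and Ccl12 lies Ccl11, which was listed at 0 in every library, as was Ccl8 on the other side of Ccl12.

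Ccl22 (ENSMUSG00000031779), on the plus strand of chromosome 8 from 94745590 to 94751699, showed 2.94, 2.54 and 1.67 FPKM in control and 2.54, 1.54 and 2.50 FPKM in PGAM5 KD libraries. The ranges of the groups overlapped over most of their length. The log2 difference of -0.080 did not pass (standard error 0.19, 95% confidence interval -0.53 to 0.37, limma adjusted p = 0.777), and it was 0.039 without control replicate 1 and 0.078 without PGAM5 KD replicate 2. Between 65 and 142 fragments per library were on Ccl22, and a rise of the size of that of Ccl2 lies within this interval.

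Ccrl2 (ENSMUSG00000043953), encoded on chromosome 9 (minus strand) from 111054486 to 111057519, was at 2.78, 2.42 and 2.42 FPKM in control and 2.45, 3.50 and 3.22 FPKM in PGAM5 KD libraries. PGAM5 KD replicates 2 and 3 were above the control libraries and replicate 1 was within their range. With a log2 difference of 0.19 Ccrl2 did not pass (standard error 0.12, 95% confidence interval -0.086 to 0.46, limma adjusted p = 0.259), at between 123 and 204 fragments per library. The log2 difference was 0.30 without PGAM5 KD replicate 1 (limma adjusted p = 0.0619) and 0.11 without PGAM5 KD replicate 2 (limma adjusted p = 0.556).

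**Figure D2:**
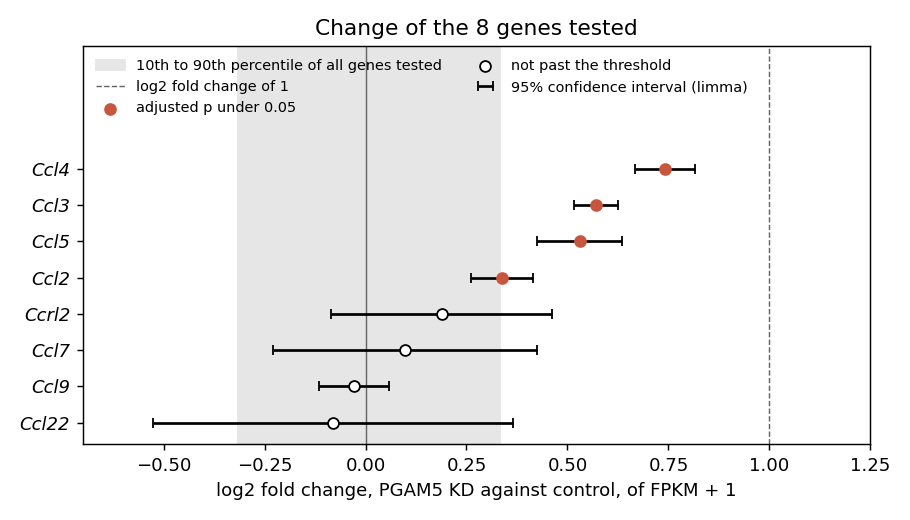
Log2 fold change between PGAM5 KD and control of FPKM + 1 (x axis) for the 8 genes tested (y axis), with limma's 95% confidence interval, 3 libraries per group. Filled points have an adjusted p under 0.05, the grey band runs from the 10th (-0.315) to the 90th (0.334) percentile of all genes tested, and no interval reaches the dashed line at 1.

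In order of level, the control means fell from Ccl3 (1433 FPKM) through Ccl4 (410), Ccl9 (169), Ccl2 (75.2) and Ccl5 (40.6) to Ccl7 (13.5), and no library of one of these genes reached the range of the next. Ccrl2 (2.54) and Ccl22 (2.38) overlapped in both groups, as did Ccl6 and Ccl12 at the bottom of the order. The same order from Ccl3 to Ccl7 was found in PGAM5 KD cells. The coefficient of variation was between 0.187% and 4.24% in either group for Ccl2, Ccl3, Ccl4, Ccl5 and Ccl9, and between 8.0% and 27.1% for Ccl7, Ccl22 and Ccrl2.

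Summed over the 9 ligand genes, the level was 2123, 2147 and 2163 FPKM in control and 3137, 3147 and 3174 FPKM in PGAM5 KD libraries, 1.47-fold higher with no overlap (exact two-sided permutation p = 0.1). Ccl3 alone made up 66.8% ± 0.277 of this sum in control and 67.5% ± 0.371 in PGAM5 KD cells (SD, n = 3). The share of Ccl4 was 19.1% ± 0.265 in control and 21.7% ± 0.501 in PGAM5 KD cells, and that of Ccl9 was 7.90% ± 0.0452 and 5.27% ± 0.241 (SD, n = 3). The shares of Ccl3 and Ccl4 were higher and those of Ccl9, Ccl2 and Ccl7 lower in PGAM5 KD libraries without overlap (exact permutation p = 0.1 for each). A lower share is not a lower level, since the sum rose. The level of Ccl2 was higher, and those of Ccl9 and Ccl7 were not past the threshold. The share of Ccl5 overlapped, at 1.89% and 1.87%. Taken from recovered fragments, which are not scaled by length, the difference in share was 4.62 percentage points for Ccl3 against 0.684 in FPKM, -7.21 against -2.63 for Ccl9 and 0.121 against -0.0204 for Ccl5.

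**Figure D3:**
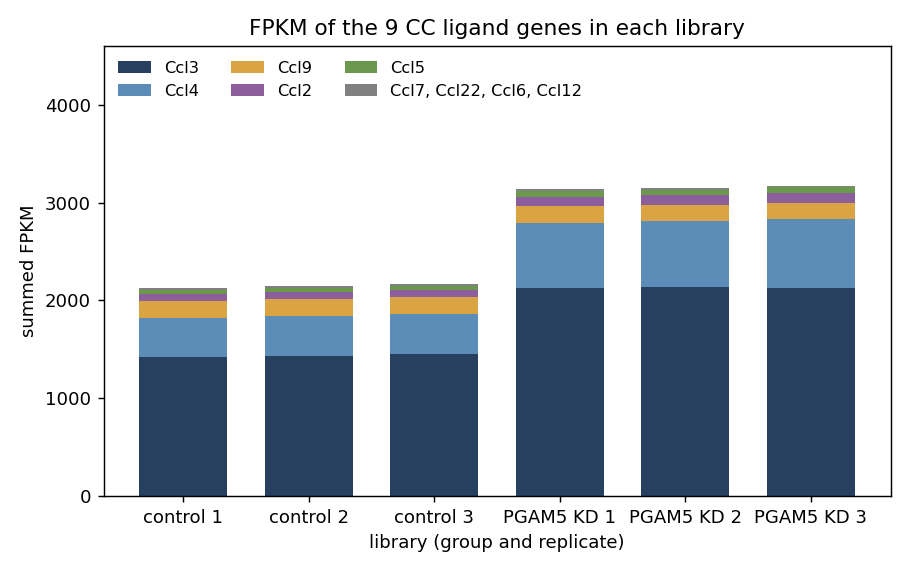
FPKM of the 9 CC ligand genes (y axis) stacked for each library (x axis), 3 control and 3 PGAM5 KD, with Ccl7, Ccl22, Ccl6 and Ccl12 joined in grey. The bars are between 2123 and 2163 FPKM in control and between 3137 and 3174 FPKM in PGAM5 KD libraries, and the Ccl9 segment is of like height in all of them.

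Along chromosome 11, the genes that rose did not form an unbroken run. In the second group Ccl5, Ccl3 and Ccl4 were higher and Ccl9, between them, was not past the threshold, and in the first group Ccl2 was higher and its neighbour Ccl7 was not past the threshold. No other annotated gene between the members of either group, or next to its ends, had a mean of at least 1 FPKM. The map of levels by position shows these genes with their strands.

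**Figure D4:**
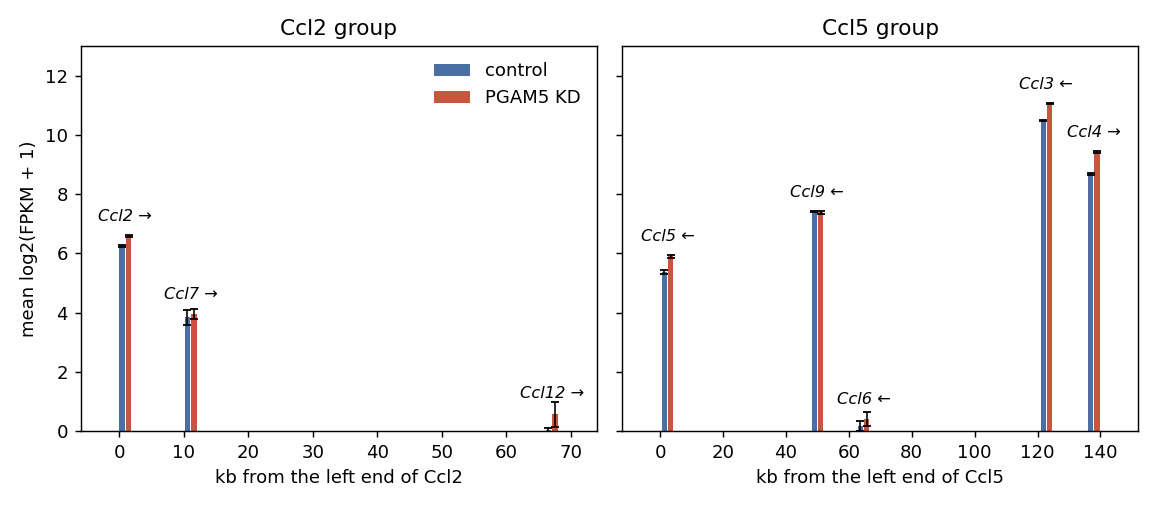
Mean log2(FPKM + 1) of control and PGAM5 KD libraries (y axis, error bars are the SD of 3 libraries) by distance in kb along chromosome 11 (x axis) for the group that starts with Ccl2 (left) and the group that starts with Ccl5 (right), with arrows for the strand. Ccl5, Ccl3 and Ccl4 are higher in PGAM5 KD on either side of Ccl9 and Ccl6.

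Of 13 other CC ligand genes, 0 passed the filter. Their highest mean in either group was 0.616 FPKM, for Ccl25, Ccl17 had 0.535, 0 and 0.199 FPKM in control and 0 in each PGAM5 KD library, and 9 were listed at 0 in all 6 libraries. Of 16 receptor genes, Ccr1 and Ccr10 were tested and neither passed the threshold. Ccr1, a receptor of Ccl3, Ccl5, Ccl6 and Ccl9, had 3.50, 2.78 and 2.31 FPKM in control and 2.15, 2.23 and 2.37 FPKM in PGAM5 KD libraries (log2 fold change -0.24, adjusted p = 0.183 from limma). Ccr10 had 2.87 and 1.94 FPKM on average (log2 fold change -0.36, adjusted p = 0.213 from limma), and it overlaps Cntnap1 on the other strand (4.79 and 2.64 FPKM). Ccr2, the main receptor of Ccl2, was at most at 0.114 FPKM in any library, and it was chosen after its values were seen.

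Downstream of these receptors, 10 of 21 signaling genes tested were higher and 3 lower in PGAM5 KD cells (median log2 fold change 0.10), where 16.8% and 14.9% of all genes tested were called and their median was 0.013. Among them were the G protein subunit gene Gng2 (5.04 to 8.54 FPKM, log2 fold change 0.66), the phospholipase gene Plcb3 (0.46), the arrestin gene Arrb2 (0.40) and Pik3r5, a regulatory subunit of PI3Kγ (-0.36). Of 4 genes of chemokine-cleaving proteases tested, Mmp9 (0.59) and Adam10 (0.34) were higher and Ctsd, which encodes cathepsin D, was lower (-0.40). Among 30 genes of factors that act on chemokine transcription or mRNA decay, 15 were higher, 3 were lower and 12 were not past the threshold, with a median log2 fold change of 0.18, to be read against the same shares and median of all genes. Irf7, a driver of interferon gene expression, rose from 15.2 ± 0.698 to 48.1 ± 2.05 FPKM (SD, n = 3), or by 1.60 on the log2 scale (limma adjusted p = 7.42e-06). Stat2 (0.85) and Cebpd (0.75) were higher as well, and the AP-1 subunit gene Fos was lower (-0.88, adjusted p = 4.74e-05 from limma). Of the other Fos and Jun genes listed, Junb (0.49) and Fosl1 (0.46) were higher and Fosl2 (-0.68) was lower. Jun (0.074) was not past the threshold. The macrophage markers moved in both directions, with Fcgr1 (1.51), Adgre1 (0.85), Itgam (0.68) and Cd14 (0.56) higher and Csf1r (-0.64), Lyz2 (-0.40) and Cd68 (-0.20) lower, and their summed level was between 2802 and 2894 FPKM in control and between 2526 and 2545 FPKM in PGAM5 KD libraries. Their part in the chemokine levels was not tested, and in bulk RNA fewer cells that express a gene and less RNA per cell cannot be told apart.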

How the data were processed

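RNA-seq of 6 libraries, 3 control and 3 PGAM5 KD, was analysed. Groups and replicate numbers came from the sample titles. The authors deposited FPKM for each library and gene, with no further scaling between libraries. The submitters' processing notes name HISAT2 2.0.5, featureCounts 1.5.0-p3 and mm10. The annotation release, the strand setting and the treatment of reads that map to several places are not given in the sources used here, and paralogs or overlapping genes can be affected. GENCODE M21 (GRCm38) gave the symbols, positions and summed exon bases of 54409 of the 54532 genes. Depth and fragments per gene were recovered from the steps of the FPKM values, and 96.8% to 97.1% of the values under 1000 fragments were whole within 0.01. Replicates of a group differed by more than sampling noise (chi-square divided by its degrees of freedom between 4.82 and 8.16).

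Genes with a mean of at least 1 FPKM over all libraries entered the linear model of limma 3.58.1 (R 4.3.3) as log2(FPKM + 1), with the trend option of eBayes, two-sided p-values and Benjamini-Hochberg adjustment over all genes. The pseudocount of 1 understates fold changes of low genes. The script was tested on simulated data. Single values were compared with an exact two-sided permutation test (SciPy 1.17.1). Similar genes were sought with blastn 2.17.0 (at least 85% identity over 200 bases of a transcript). Promoter sequences came from RefSeq.

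The members and the gene lists were chosen with earlier results of these data known. The lists were other CC ligands, receptors, receptor signaling, chemokine processing, factors of transcription and mRNA decay, and markers of 5 cell types. Named were all members, Pgam5, the tested ligands and receptors, the neighbours of members past the filter, and markers. The gene that overlaps Ccl6 was named, as was Adipor1 among the genes that resemble Ccl9. At most 4 genes past the threshold were named from each other list, by size of change. The other Fos and Jun genes listed were named beside Fos. The alternatives were a pseudocount of 0.1, no filter, a mean of at least 5 FPKM, quantile normalization, TPM, centring on the median, array weights, no trend, the replicate number as a block, each library left out in turn, voom on recovered fragments, protein-coding genes only, sums with similar genes, and shares of fragments. Leaving out each library for the fragment ratios of Ccl6 and Ccl12 was chosen after seeing the data. Python 3.11.15, pandas 2.3.3 and matplotlib 3.10.9 were used.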

Additional observations from a re-analysis of the deposited data

How the results depend on the processing

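Ccl2, Ccl3, Ccl4 and Ccl5 were higher at an adjusted p under 0.05 from limma under each of the 17 alternatives of the fit, and no other member passed under any of them. Their log2 fold changes ranged from 0.26 to 0.36, from 0.49 to 0.58, from 0.55 to 0.76 and from 0.46 to 0.56. Leaving out each library in turn, Ccl7 ranged from -0.0498 (without control replicate 1) to 0.193, and Ccl22 from -0.240 to 0.0779 (without PGAM5 KD replicate 2), with 0.0389 without control replicate 1, and Ccrl2 from 0.11 to 0.30. Ccl9 was at -0.107 scaled to TPM (limma adjusted p = 0.095) and at -0.105 with quantile normalization (limma adjusted p = 0.0753). When summed with the genes that resemble it, Ccl9 changed sign (0.00609). Of these genes, Adipor1 had 25.1 FPKM in control and 28.9 FPKM in PGAM5 KD cells. Ccl7, Ccl22, Ccrl2 and Ccl9 had no call under these settings. Over all genes tested, 1771 were higher and 1575 lower, and scaled to TPM 1088 were higher and 2282 lower. TPM divides each value by the summed FPKM of its library, and this sum is larger in each PGAM5 KD library. Against 83 higher and 56 lower differentially expressed genes, the counts were 154 and 107 with a pseudocount of 0.1, 49 and 27 with a mean of at least 5 FPKM (which leaves Ccl22 and Ccrl2 untested), 172 and 108 with voom, 117 and 116 scaled to TPM, and 25 lower among protein-coding genes. The cause of these moves was not tested. In recovered fragments, which are not per length, the shares of Ccl2, Ccl3, Ccl5, Ccl9 and Ccl22 differed by -0.313, 4.62, 0.121, -7.21 and -0.0899 percentage points, against -0.485, 0.684, -0.0204, -2.63 and -0.0416 in FPKM. With a replicate block, 4 members and 1440 genes were higher, 0 members and 1212 genes were lower, and 86 higher and 61 lower genes were differentially expressed. Whether replicates with the same number share a culture or a batch is not given. Over all genes tested, deviations of libraries with the same number had correlations of -0.0197, 0.0161 and -0.0516. Not every library correlated best with its own number. These correlations cannot show a pairing that affects only some genes. Ccl7, Ccl22 and Ccrl2 rest on between 65 and 277 fragments per library. Ccl6 and Ccl12 had at most 22 fragments.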

Other observations

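Of the 8 genes tested, the coefficient of variation between replicates was above that of counting alone for 6 genes in control and for 7 genes in PGAM5 KD libraries. It was below it for Ccl2 (1.5% against 2.46%) and Ccrl2 (8.0% against 8.87%) in control and for Ccl3 (0.187% against 0.534%) in PGAM5 KD libraries. In PGAM5 KD libraries the ratio to counting error was highest for Ccl9 (4.15% against 0.958%), and Ccl22 varied most, at 27.1% against 9.70% in control and 25.9% against 9.44% in PGAM5 KD libraries. With 3 libraries per group these coefficients are themselves imprecise. The uncharacterized gene Gm43814, next to Ccrl2 on chromosome 9 and chosen after its values were seen, was below the filter with 0.210 FPKM in control and 0.769 FPKM in PGAM5 KD cells on average.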
